A study of Mus musculus with 12 samples.

Results

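The 10 genes described here sense bacterial lipopolysaccharide (LPS) and other Toll receptor ligands, carry the signal to the transcription factor NF-kB, and restrain it again. They are Cd14, Lbp, Ly96, Tlr4 and Tlr2 on the sensing side, Myd88, Tifa and Irak3 below the receptors, and Nfkbia and Tnfaip3 as feedback inhibitors. They were matched by gene symbol among the 18193 genes that had a probe set with a single symbol, and each gene was read from its probe set with the highest mean over the 12 arrays. Lbp and Tifa were taken in because of their response to carbon tetrachloride (CCl4) under the knockdown virus, that is, from the shLFAR1+CCl4 and shLFAR1 arrays. Their values in every comparison that uses either group are therefore given as a description without a test, and only NC+CCl4 against NC was tested for them. The other 8 genes were not chosen for a value.

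The liver receives portal blood that carries bacterial products from the gut. LPS is picked up in plasma by the LPS-binding protein Lbp, passed to the membrane-anchored or soluble carrier CD14, and loaded onto the complex of TLR4 with MD-2, the product of Ly96. Receptor adaptors then activate kinases that release NF-kB, and NF-kB in turn switches on the genes of its own inhibitors, among them Nfkbia, which encodes IκBα, and Tnfaip3, which encodes A20.

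Liver RNA came from male Balb/c mice, which were 8 weeks old when the study obtained them, and was hybridized to Affymetrix mouse expression arrays, which read a transcript with probe sets near its 3′ end, with 3 arrays for each of 4 groups of 10 mice. The study asked what the liver-enriched long noncoding RNA lnc-LFAR1 does in fibrosis caused by CCl4. Mice of the groups shLFAR1+CCl4 and NC+CCl4 received 5% CCl4 in olive oil at 0.3 ml/kg by intraperitoneal injection 3 times a week, and mice of the groups shLFAR1 and NC received the same volume of olive oil. Every mouse was also given a lentivirus through the tail vein after 2 weeks, followed by 4 more weeks of injections, so that no group was free of virus. In shLFAR1+CCl4 and shLFAR1 the virus carried a short hairpin RNA against lnc-LFAR1, and in NC+CCl4 and NC it was the control virus. No probe set was named for lnc-LFAR1, so the extent of the knockdown was not analysed here. The labels call the replicates biological.

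The summed linear signal of 9 hepatocyte markers was between 85611 and 95441 on every array. The highest markers, such as Alb and Ttr, make up most of this sum, so it says little about the others. The arrays did not all lie with their labelled group. On the first principal component, which held 56.3% of the variance, shLFAR1+CCl4 replicate 3 was at 39.2, beside the NC+CCl4 arrays at 34.8 to 48.8, whereas shLFAR1+CCl4 replicates 1 and 2 were at -6.80 and -9.66, and the oil arrays lay between -26.7 and -20.4. NC+CCl4 replicate 1 had the largest difference between 3′ and 5′ control probe sets, 1.31 log2 units for actin and 0.716 for Gapdh, against 0.704 to 1.07 and -0.205 to 0.033 on the other arrays. For the 10 genes, calls that changed without these arrays are stated with the result. The same holds for pathway genes given with a standard error, but only in comparisons where they were called. Where a pathway gene was not called, leaving out arrays was not examined, and the missing call may depend on single arrays.

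Promoter sequences are shown because Nfkbia and Tnfaip3 are textbook NF-kB targets. Windows of 250 bases before an annotated start site were taken from RefSeq (GRCm38.p6). The 9 windows searched belonged to 6 of the 10 genes, namely Tlr2, Myd88, Irak3, Tifa, Nfkbia and Tnfaip3. The remaining genes were not searched, and the shares below do not cover them. Both strands were searched for the NF-kB consensus. At least 1 match lay in 3 of the 9 windows, 1 each of Tlr2, Nfkbia and Tnfaip3, against 2382 of 32851 windows of all genes (7.3%). By gene this was 3 of 6, against 2225 of 27025 genes (8.23%). Nfkbia and Tnfaip3 were known targets beforehand, so these shares are a description and no test of enrichment. In Nfkbia the match GGAAATTCCC ran from position -29 to -20 relative to the start site. In 1 of the Tnfaip3 windows GGAAATCCCC lay at -12 to -3 and GGGACACCCC at -125 to -116, and its other window held no match. The Tlr2 match GGGAATTCCC lay at -172 to -163. A match describes the letters of the window and is no evidence that NF-kB was bound there. The windows of Nfkbia (chr12:55492648-55492897, minus strand) and Tnfaip3 (chr10:19015411-19015660, minus strand) read as follows, with the consensus matches in capitals.
Nfkbia: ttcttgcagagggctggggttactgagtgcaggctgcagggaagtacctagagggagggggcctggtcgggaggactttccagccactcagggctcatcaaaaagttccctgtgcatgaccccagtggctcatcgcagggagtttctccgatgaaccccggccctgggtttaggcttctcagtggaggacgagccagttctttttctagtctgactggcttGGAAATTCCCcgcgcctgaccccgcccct
Tnfaip3: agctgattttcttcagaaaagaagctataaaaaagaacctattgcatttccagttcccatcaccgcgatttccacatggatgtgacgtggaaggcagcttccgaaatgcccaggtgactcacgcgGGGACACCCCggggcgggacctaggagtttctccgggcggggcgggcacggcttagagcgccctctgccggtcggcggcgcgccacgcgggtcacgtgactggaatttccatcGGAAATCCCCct

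In NC+CCl4 against NC 2 of the 10 genes rose, the LPS carrier Cd14 and the feedback inhibitor Tnfaip3, and none fell (limma, Benjamini-Hochberg adjusted p under 0.05 over all genes). Over all genes 13.1% were called in NC+CCl4 against NC, and 7.66% were called higher. The 10 genes had a median log2 change of 0.29, against -0.05 for all genes, with 7 changes above 0 and 3 below. Cd14, Irak3 and Tnfaip3 were the 3 genes for which every NC+CCl4 array was above every NC array, a pattern that 13.8% of all genes had. Between shLFAR1+CCl4 and NC+CCl4 none of the 8 genes tested was called (0.291% of all genes were), and none was free of overlap between the arrays (12.3% of all genes). An unadjusted p under 0.05 was found for Nfkbia alone, at 14.2% of all genes, and 53 of all 18193 genes were called, against 55 with replicate number as a block over all arrays and 0 when only the arrays of these groups were fitted, with or without the block.

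For its arrays the study states a threshold of p under 0.05 and a change of more than 1.6-fold, without naming the test or an adjustment. Its general methods name Student's test for comparisons of 2 groups and analysis of variance for more. Here Student's test with an unadjusted p was used at that threshold. At that threshold Cd14 and Tnfaip3 were past it in NC+CCl4 against NC, 2 of the 10 genes, as were 6.94% of all genes. Between shLFAR1+CCl4 and NC+CCl4 0 of the 8 tested genes were past it (0.967% of all genes). Cd14 and Tnfaip3 were again past it in shLFAR1+CCl4 against shLFAR1, 2 of the 8 (1.32% of all genes), and in shLFAR1 against NC 0 of the 8 were (0.17% of all genes). With Benjamini-Hochberg adjustment the same test called 0 of the 10 or 8 genes tested in each of these comparisons. Of all 18193 genes it called 280 in NC+CCl4 against NC and 0 in each of the others, so these counts say little about the genes described here.

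**Figure D1:**
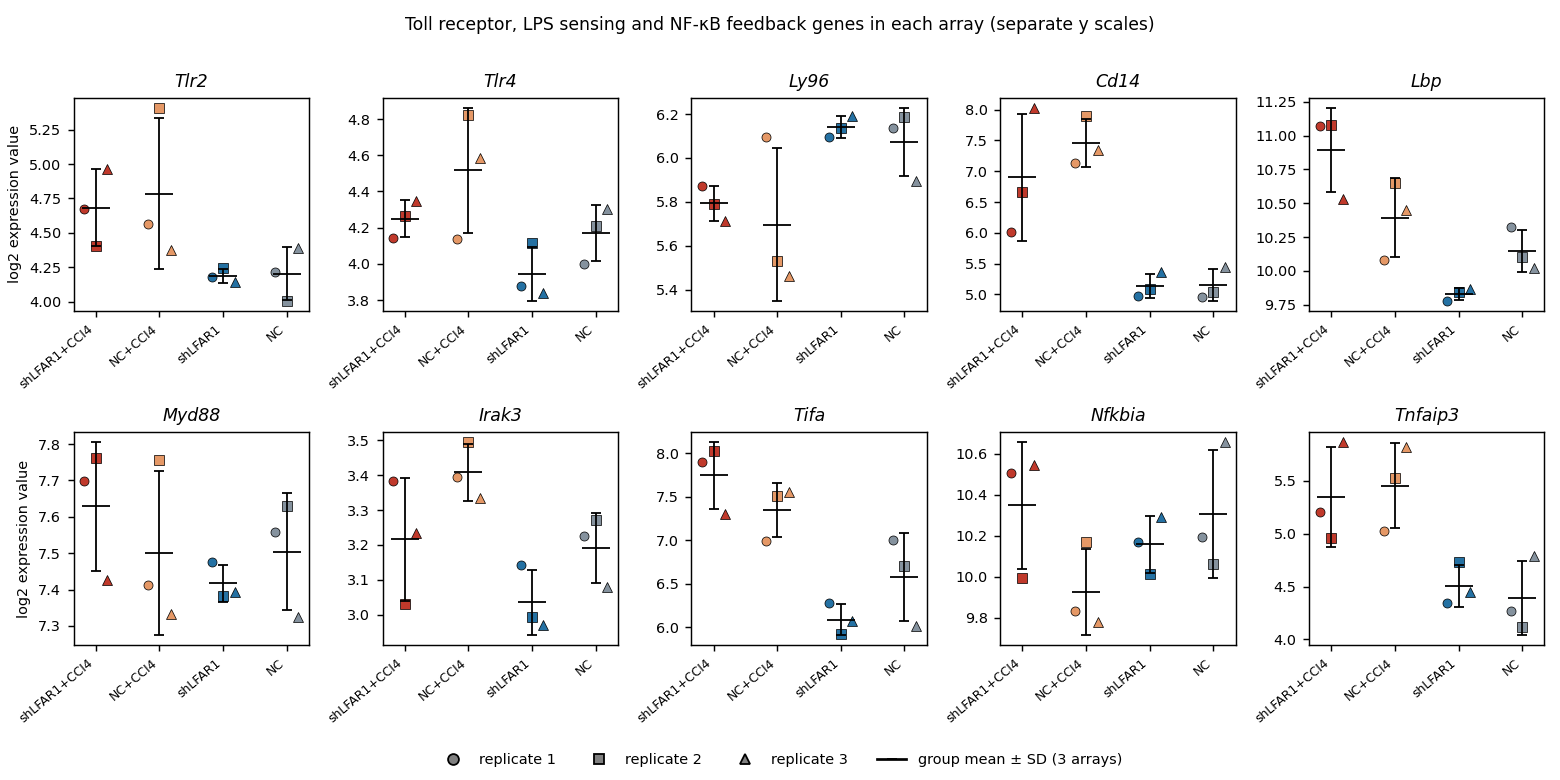
Log2 expression value (y axis, a separate scale for each gene) of the 10 genes on each array, for the groups shLFAR1+CCl4, NC+CCl4, shLFAR1 and NC from left to right; symbols are single arrays by replicate number and bars the group mean ± SD of 3 arrays. Cd14 and Tnfaip3 lie higher in all 3 NC+CCl4 arrays than in all 3 NC arrays, and Cd14 has its widest spread in shLFAR1+CCl4, between 6.02 and 8.03.

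Cd14 showed the largest difference between CCl4 and oil of the 10 genes, under either virus. Under the knockdown virus this rank depended on single arrays. The log2 values of Cd14 were 6.02, 6.66 and 8.03 in shLFAR1+CCl4, 7.14, 7.89 and 7.35 in NC+CCl4, 4.97, 5.09 and 5.36 in shLFAR1, and 4.96, 5.04 and 5.44 in NC. All 6 CCl4 arrays were above all 6 oil arrays, and the spread was widest in shLFAR1+CCl4, whose replicate 3 held the highest value of all 12 arrays and whose replicates 1 and 2 were below every NC+CCl4 array. In NC+CCl4 against NC Cd14 rose by 2.31 ± 0.39 (SE) log2 units, or 4.95-fold (limma adjusted p = 0.00306). With the knockdown virus the difference between CCl4 and oil was 1.76 ± 0.39 (3.39-fold), which missed the threshold in shLFAR1+CCl4 against shLFAR1 (limma adjusted p = 0.0824). Without shLFAR1+CCl4 replicate 3 this difference was 1.20 for Cd14, below the 1.88 of Tifa.

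Within CCl4 livers Cd14 was 0.56 ± 0.39 log2 units lower in shLFAR1+CCl4 than in NC+CCl4 (95% interval -1.40 to 0.28, limma adjusted p = 0.58). This value depended on single arrays. Without shLFAR1+CCl4 replicate 1 it was -0.11 and without NC+CCl4 replicate 2 it was -0.34, neither of them called. Without shLFAR1+CCl4 replicate 3 the change was -1.12 and was called (limma adjusted p = 0.017), and without both that array and NC+CCl4 replicate 1 it was -1.28 (limma adjusted p = 0.0104). Of all 18193 genes 1327 and 1541 were called in these fits, against 53 with all arrays. Without shLFAR1+CCl4 replicate 1 the difference between shLFAR1+CCl4 and shLFAR1 was 2.20 and was called (limma adjusted p = 0.0196). The difference between the CCl4 responses under both viruses, the interaction, was -0.55 ± 0.55 (95% interval -1.73 to 0.64, limma adjusted p = 0.804), and it was -1.11 to -0.10 without single arrays, with no call. In the oil groups Cd14 differed by -0.01 ± 0.39 log2 units between shLFAR1 and NC (95% interval -0.85 to 0.83).

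Most macrophage markers moved with Cd14. CD14 is made by monocytes and macrophages, and of 9 monocyte and macrophage markers 6 rose in NC+CCl4 against NC, among them Cd68 by 2.94 ± 0.54 and Lyz2 by 3.94 ± 0.49 log2 units, the largest rises. Itgam (0.95), Ccr2 (-0.18) and Mertk (-0.03) were not called. The mean log2 value of the 9 markers was 6.42, 6.45 and 7.48 in shLFAR1+CCl4, 7.39, 8.09 and 7.34 in NC+CCl4, 5.94 to 6.11 in shLFAR1, and 5.88 to 6.17 in NC. Their summed linear signal was 1849 to 6139 in shLFAR1+CCl4, 5053 to 9983 in NC+CCl4, 1085 to 1185 in shLFAR1 and 1032 to 1297 in NC. Lyz2 and Csf1r had the highest means of the 9 markers in every group, so the sum leans on them. In shLFAR1+CCl4 against NC+CCl4 none of the 9 was called. Replicate 3 of shLFAR1+CCl4 was the high array of its group for the markers as it was for Cd14. Of 6 Kupffer cell markers Cd5l rose by 0.77 ± 0.21 and Cd163 fell by 1.58 ± 0.25 in NC+CCl4 against NC, and of 6 neutrophil markers 3 rose. Also 6 of 8 stellate cell and fibroblast markers rose, whereas none of 9 hepatocyte markers was called in any comparison. Over all genes 13.1% were called in NC+CCl4 against NC and 7.66% were called higher. The part that these cell types had in the values of the 10 genes was not tested, and in RNA of whole liver fewer cells of a type and less RNA per cell cannot be told apart.

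**Figure D2:**
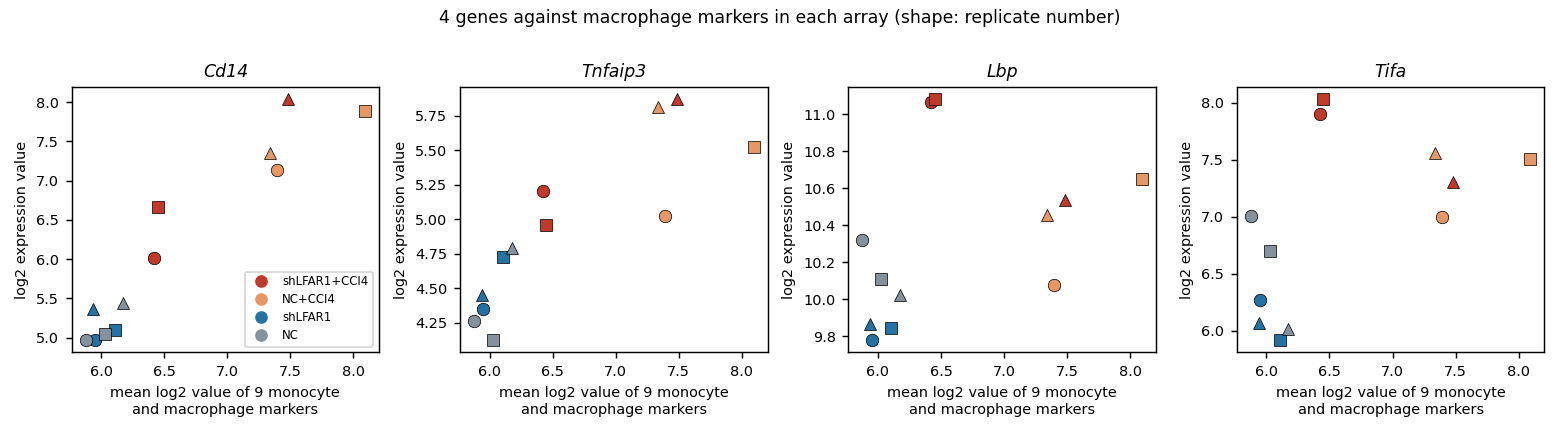
Log2 expression value of Cd14, Tnfaip3, Lbp and Tifa (y axes, separate scales) against the mean log2 value of 9 monocyte and macrophage markers (x axis) on each of the 12 arrays; colours are groups and shapes replicate numbers. The highest Cd14 value, 8.03, belongs to shLFAR1+CCl4 replicate 3, and the highest Lbp and Tifa values belong to shLFAR1+CCl4 replicates 1 and 2, whose marker means were 6.42 and 6.45.

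Lbp, the plasma protein that binds LPS and is secreted by hepatocytes, had its highest values under the knockdown virus with CCl4. They were 11.07, 11.08 and 10.53 in shLFAR1+CCl4, 10.08, 10.65 and 10.45 in NC+CCl4, 9.78, 9.84 and 9.87 in shLFAR1, and 10.32, 10.11 and 10.02 in NC. The shLFAR1+CCl4 arrays were all above the shLFAR1 arrays, and replicates 1 and 2 were also above every other array, while the CCl4 and oil arrays of the control virus overlapped. The response that chose the gene was 1.07 log2 units (2.09-fold) in shLFAR1+CCl4 against shLFAR1, beside which Lbp was 0.50 higher in shLFAR1+CCl4 than in NC+CCl4 and 0.32 lower in shLFAR1 than in NC. In the comparison that did not choose it, NC+CCl4 against NC, the change was 0.24 ± 0.16 (95% interval -0.11 to 0.60, limma adjusted p = 0.373). It was 0.12 to 0.40 without single arrays, with 0.40 without NC+CCl4 replicate 1, and it was called without both that array and shLFAR1+CCl4 replicate 3 (0.40, limma adjusted p = 0.0175). The other Lbp probe set, 1447520_at, had a change of 0.44 ± 0.20 there (limma adjusted p = 0.195 over 34945 probe sets) and was 0.85 higher in shLFAR1+CCl4 than in shLFAR1. It differed by 0.33 between shLFAR1+CCl4 and NC+CCl4 and by only -0.08 between shLFAR1 and NC. The difference between the CCl4 responses under both viruses was 0.41 with this probe set and 0.82 with the main one.

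The LPS receptor itself moved less, and the answer depended on the probe set. The Tlr4 values of probe set 1418163_at were 4.14, 4.26 and 4.34 in shLFAR1+CCl4, 4.14, 4.82 and 4.59 in NC+CCl4, 3.88, 4.11 and 3.84 in shLFAR1, and 4.00, 4.21 and 4.30 in NC. NC+CCl4 overlapped with NC only through its replicate 1, and the shLFAR1+CCl4 arrays were all above the shLFAR1 arrays. The change was 0.35 ± 0.16 in NC+CCl4 against NC (limma adjusted p = 0.189) and -0.27 ± 0.16 in shLFAR1+CCl4 against NC+CCl4 (limma adjusted p = 0.507). Without NC+CCl4 replicate 1 Tlr4 was called in NC+CCl4 against NC, at 0.53 (limma adjusted p = 0.0291), and without NC+CCl4 replicate 2 the change was 0.19. The mean of its probe sets was called there (0.52, limma adjusted p = 0.036).

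Tlr4 was read by 4 probe sets, and 1418162_at gave 3.75, 4.09 and 4.99 in shLFAR1+CCl4, 4.48, 5.54 and 5.02 in NC+CCl4, 3.48, 3.97 and 3.62 in shLFAR1, and 3.47, 3.57 and 3.99 in NC. Here every NC+CCl4 array was above every oil array, and shLFAR1+CCl4 replicates 1 and 2 were below all NC+CCl4 arrays. This probe set rose by 1.34 ± 0.31 in NC+CCl4 against NC (limma adjusted p = 0.0165 over 34945 probe sets) and was 0.73 ± 0.31 lower in shLFAR1+CCl4 than in NC+CCl4, which was not called (limma adjusted p = 0.342). The remaining Tlr4 probe sets changed by 0.04 and 0.35 in NC+CCl4 against NC without a call. The mean of Tlr4, like those of Tlr2, Irak3 and Tnfaip3, was below the median of all genes, where background can take a larger share of an array signal and changes can be understated.

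**Figure D3:**
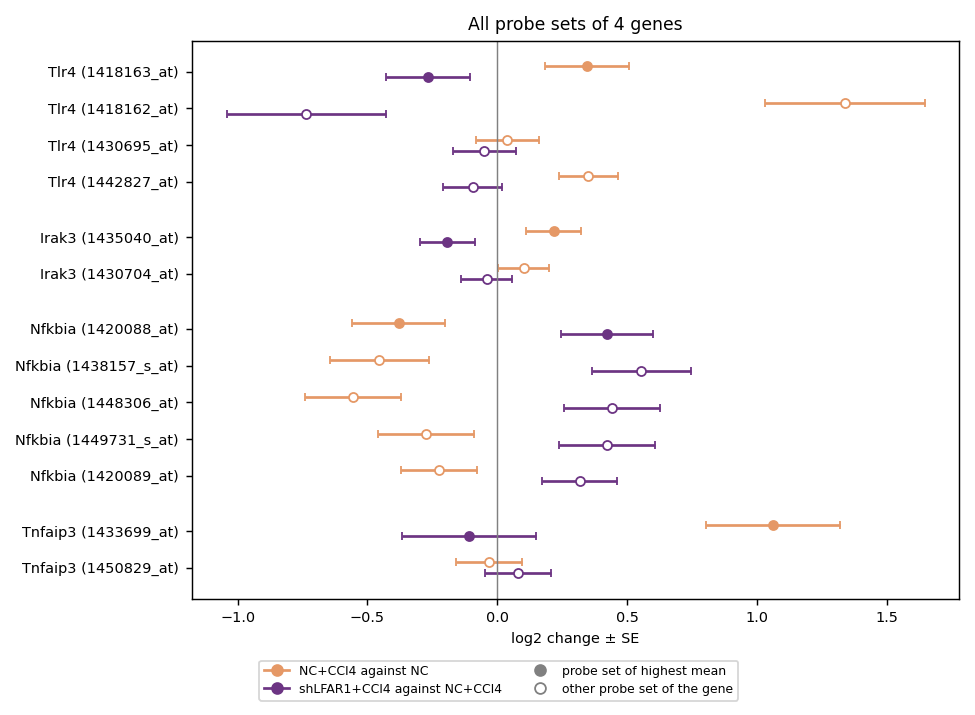
Log2 change ± SE (x axis) of every probe set of Tlr4, Irak3, Nfkbia and Tnfaip3 (y axis) in shLFAR1+CCl4 against NC+CCl4 and in NC+CCl4 against NC; filled points are the probe sets with the highest mean and open points the others. The 5 Nfkbia probe sets lie on the same sides of 0, whereas the Tlr4 probe sets range between 0.04 and 1.34 and the Tnfaip3 probe sets differ, at 1.06 and -0.03, in NC+CCl4 against NC.

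Ly96, whose product MD-2 holds LPS in the TLR4 complex, was low in most CCl4 arrays. Its values were 5.87, 5.79 and 5.71 in shLFAR1+CCl4, 6.10, 5.53 and 5.46 in NC+CCl4, 6.09, 6.14 and 6.19 in shLFAR1, and 6.14, 6.19 and 5.89 in NC. All shLFAR1+CCl4 arrays were below all oil arrays, and of the NC+CCl4 arrays only replicate 1 was not. The changes were -0.38 ± 0.16 in NC+CCl4 against NC (limma adjusted p = 0.146), -0.35 ± 0.16 in shLFAR1+CCl4 against shLFAR1 (limma adjusted p = 0.457) and 0.10 ± 0.16 in shLFAR1+CCl4 against NC+CCl4 (limma adjusted p = 0.857). Without NC+CCl4 replicate 1 Ly96 was called lower in NC+CCl4 against NC (-0.58, limma adjusted p = 0.0121), and so it was with array weights (-0.50, limma adjusted p = 0.0284).

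Tlr2, the receptor for bacterial lipoproteins, had values of 4.67, 4.41 and 4.97 in shLFAR1+CCl4, 4.57, 5.41 and 4.38 in NC+CCl4, 4.18, 4.24 and 4.15 in shLFAR1, and 4.21, 4.00 and 4.39 in NC. All shLFAR1+CCl4 arrays exceeded all oil arrays, and NC+CCl4 replicate 3 lay just within the NC range. NC+CCl4 against NC gave 0.58 ± 0.23 (95% interval 0.09 to 1.08, limma adjusted p = 0.12), which was 0.27 without NC+CCl4 replicate 2, the highest array. Further, shLFAR1+CCl4 against shLFAR1 gave 0.49 ± 0.23 (limma adjusted p = 0.469), and shLFAR1+CCl4 against NC+CCl4 gave -0.10 ± 0.23 (95% interval -0.60 to 0.39, limma adjusted p = 0.902).

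Of the genes below the receptors, Myd88, the adaptor that most Toll receptors share, overlapped between all 4 groups. It had values of 7.70, 7.76 and 7.43 in shLFAR1+CCl4, 7.41, 7.76 and 7.33 in NC+CCl4, 7.48, 7.38 and 7.39 in shLFAR1, and 7.56, 7.63 and 7.32 in NC. Each pair of neighbouring groups in the order of means overlapped. NC+CCl4 differed from NC by -0.00 ± 0.14 (95% interval -0.31 to 0.30), and shLFAR1+CCl4 from NC+CCl4 by 0.13 ± 0.14 (95% interval -0.17 to 0.43).

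Irak3, which encodes IRAK-M, an inhibitory member of the IRAK family, gave 3.38, 3.03 and 3.23 in shLFAR1+CCl4, 3.40, 3.50 and 3.33 in NC+CCl4, 3.14, 2.99 and 2.97 in shLFAR1, and 3.23, 3.27 and 3.08 in NC. NC+CCl4 was above NC without overlap, by 0.22 ± 0.10 (limma adjusted p = 0.2), and shLFAR1+CCl4 overlapped with each of the other groups. Its difference from NC+CCl4 was -0.19 ± 0.10 (95% interval -0.42 to 0.03, limma adjusted p = 0.445).

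Tifa, an adaptor that binds TRAF6 and leads to activation of NF-kB, was chosen for its response under the knockdown virus. Its values were 7.90, 8.03 and 7.30 in shLFAR1+CCl4, 7.00, 7.51 and 7.56 in NC+CCl4, 6.28, 5.92 and 6.07 in shLFAR1, and 7.00, 6.70 and 6.02 in NC. The shLFAR1+CCl4 arrays were all above both oil groups, as with Lbp its replicates 1 and 2 were the highest of all arrays, and NC replicate 3 lay far below the other NC arrays. The difference was 1.66 log2 units (3.15-fold) in shLFAR1+CCl4 against shLFAR1, 0.39 in shLFAR1+CCl4 against NC+CCl4 and -0.49 in shLFAR1 against NC. Under the control virus, which was not used to choose it, Tifa changed by 0.78 ± 0.26 (1.71-fold, 95% interval 0.22 to 1.33) and missed the threshold (limma adjusted p = 0.0657). It was called there without shLFAR1+CCl4 replicate 3, at 0.78 (limma adjusted p = 0.0352), without NC+CCl4 replicate 1, at 0.96 (limma adjusted p = 0.0433), and without NC replicate 1, at 0.99 (limma adjusted p = 0.0463). Without NC replicate 3, the low array, the change was 0.50 (limma adjusted p = 0.219).

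**Figure D4:**
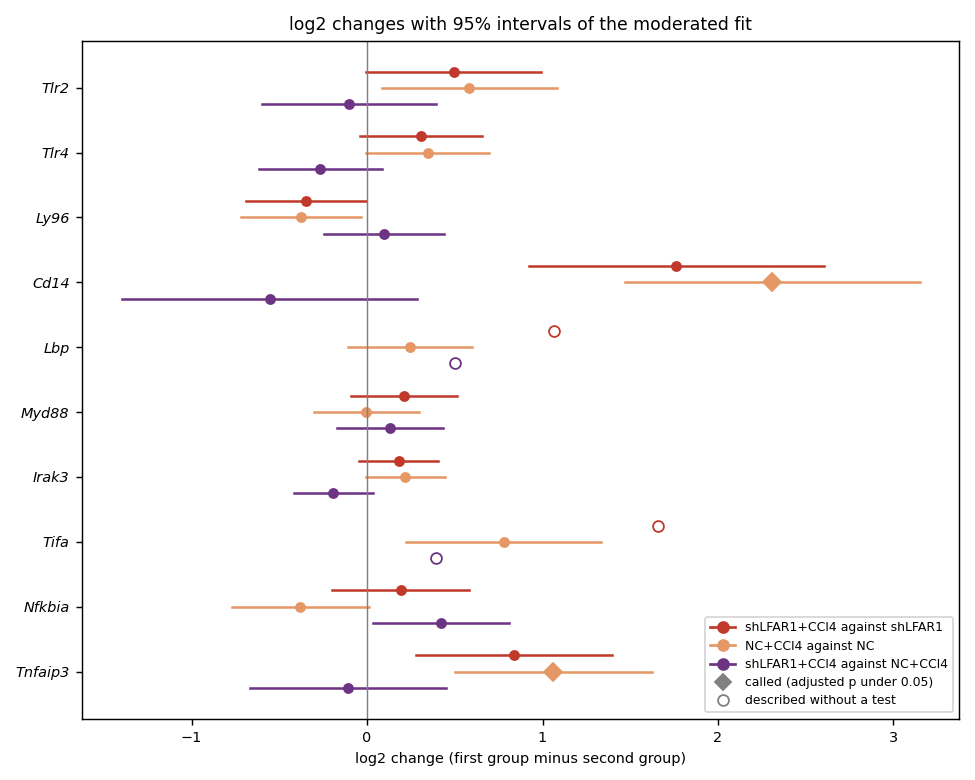
Log2 changes (x axis) of the 10 genes (y axis) with 95% intervals of the moderated fit in shLFAR1+CCl4 against shLFAR1, shLFAR1+CCl4 against NC+CCl4 and NC+CCl4 against NC; diamonds are called and open circles are given without a test. Cd14 at 2.31 and Tnfaip3 at 1.06 are the called changes, both in NC+CCl4 against NC.

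Of the feedback inhibitors Tnfaip3 was called in NC+CCl4 against NC and Nfkbia was not. Tnfaip3, which encodes the ubiquitin-editing enzyme A20, had values of 5.21, 4.96 and 5.87 in shLFAR1+CCl4, 5.02, 5.52 and 5.82 in NC+CCl4, 4.35, 4.73 and 4.45 in shLFAR1, and 4.27, 4.12 and 4.79 in NC. All 6 CCl4 arrays were above all 6 oil arrays, and the CCl4 groups overlapped. Tnfaip3 rose by 1.06 ± 0.26 (2.09-fold) in NC+CCl4 against NC (limma adjusted p = 0.0181). It was 0.84 ± 0.26 higher in shLFAR1+CCl4 than in shLFAR1, short of the threshold (limma adjusted p = 0.233), and differed by -0.11 ± 0.26 between shLFAR1+CCl4 and NC+CCl4 (95% interval -0.67 to 0.45, limma adjusted p = 0.909). The call in NC+CCl4 against NC was lost without NC+CCl4 replicate 3 (0.88, limma adjusted p = 0.0712), without NC replicate 1 (1.00, limma adjusted p = 0.0699) and without NC replicate 2 (0.93, limma adjusted p = 0.079). The other Tnfaip3 probe set, 1450829_at, changed by -0.03 ± 0.13 in the same comparison, and the mean of both probe sets was not called (0.51, limma adjusted p = 0.0613).

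Nfkbia, which encodes IκBα, the protein that holds NF-kB in the cytoplasm, was lowest in NC+CCl4. Its values were 10.51, 9.99 and 10.55 in shLFAR1+CCl4, 9.83, 10.17 and 9.78 in NC+CCl4, 10.17, 10.01 and 10.29 in shLFAR1, and 10.19, 10.06 and 10.66 in NC. The groups overlapped, with NC+CCl4 replicates 1 and 3 below all other arrays. The change was -0.38 ± 0.18 in NC+CCl4 against NC (limma adjusted p = 0.195), with -0.20 without NC replicate 3, and 0.42 ± 0.18 in shLFAR1+CCl4 against NC+CCl4 (95% interval 0.03 to 0.81, limma unadjusted p = 0.0356, adjusted p = 0.313), so neither was called. All 5 Nfkbia probe sets changed in the same direction as each other, by 0.32 to 0.55 in shLFAR1+CCl4 against NC+CCl4 and by -0.56 to -0.22 in NC+CCl4 against NC, and no probe set was called in either comparison. Probe sets of a gene read the same RNA and are no replicates, and the comparisons share the NC+CCl4 arrays. The interaction was 0.57 ± 0.25 (95% interval 0.02 to 1.12, limma unadjusted p = 0.0433, adjusted p = 0.507).

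In shLFAR1+CCl4 against shLFAR1 none of the 8 genes tested was called (0.407% of all genes), and their median change was 0.26, against -0.03 for all genes. Cd14, Tnfaip3 and Ly96, 3 of the 8, had an unadjusted p under 0.05, at 10.8% of all genes. The arrays were free of overlap for 5 of the 8, with Cd14, Tnfaip3, Tlr2 and Tlr4 higher and Ly96 lower, compared with 20.1% of all genes. Tested as a difference between the responses, 0 of the 8 were called, at a background of 0.022% of all genes, and 1 of the 8, Nfkbia, had an unadjusted p under 0.05, at 9.51%. By description Lbp and Tifa had responses of 1.07 and 1.66 under the knockdown virus, against 0.24 and 0.78 under the control virus. In shLFAR1 against NC none of the 8 was called with limma, none had an unadjusted p under 0.05 (2.77% of all genes did) and none was free of overlap (10.8% of all genes). Of all 18193 genes limma called 0 in this comparison, with 504 at an unadjusted p under 0.05.

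The rest of the pathway was described over 6 lists of 93 genes in all, of which 83 were measured. Over all genes 13.1% were called in NC+CCl4 against NC and 7.66% were called higher, the shares to set beside each list count. Of the other Toll receptors and the accessory chain Ly86, 11 genes measured, 5 rose and 0 fell in NC+CCl4 against NC, with a list median of 0.39 against -0.05 for all genes. Ly86, which encodes MD-1, the partner of the Toll-like protein CD180 and a relative of MD-2, had values of 6.57, 6.80 and 8.40 in shLFAR1+CCl4, 8.04, 9.22 and 8.34 in NC+CCl4, 5.89, 5.97 and 5.99 in shLFAR1, and 5.95, 5.60 and 6.09 in NC. As for Cd14, shLFAR1+CCl4 replicate 3 lay with the NC+CCl4 arrays and replicates 1 and 2 below them. Ly86 rose by 2.66 ± 0.40 in NC+CCl4 against NC (limma adjusted p = 0.00199). Its difference of -1.28 ± 0.40 in shLFAR1+CCl4 against NC+CCl4 was not called (limma adjusted p = 0.171), and was not examined without shLFAR1+CCl4 replicate 3. Tlr13, a receptor of bacterial ribosomal RNA, rose by 1.44 ± 0.37, and Tlr1, which pairs with TLR2 on lipoproteins, rose by 1.37 ± 0.25. The call of Tlr13 was lost without NC+CCl4 replicate 1 or 2 or NC replicate 1 or 2 (limma adjusted p = 0.053 to 0.0885). Tlr3 (0.90) and Tlr7 (0.65), named after their values were seen as Tnip1, Ier3 and Sod2 are below, made up the other calls. No gene of this list was called in the other comparisons.

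**Figure D5:**
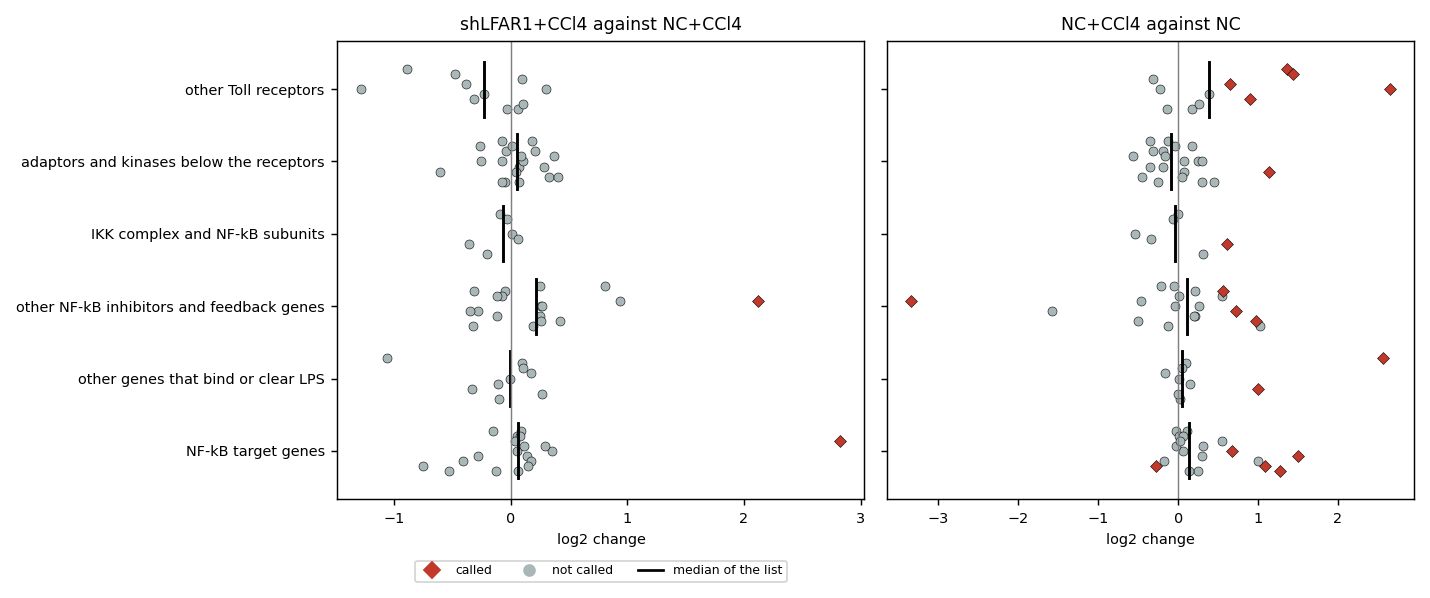
Log2 change (x axes) of the measured genes of 6 pathway lists (y axis) in shLFAR1+CCl4 against NC+CCl4 (left) and in NC+CCl4 against NC (right); red diamonds are called genes, grey circles genes not called, and black lines the list medians. The called genes on the left are Nlrp12 at 2.12 and Cxcl1 at 2.83, and the lowest point on the right is Nlrp12 at -3.34.

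Most signalling genes between receptor and nucleus were not called, as was true of most genes (13.1% of all genes were called in NC+CCl4 against NC). Of 20 adaptors and kinases 1 rose in NC+CCl4 against NC, the interferon regulator Irf7, by 1.14 ± 0.34, and of 6 measured IKK and NF-kB subunits 1 rose, Relb of the non-canonical pathway, by 0.62 ± 0.16. The list medians were -0.09 and -0.03. Irf7 kept its call in 2 of the 12 fits without a single array, those without shLFAR1+CCl4 replicate 3 or NC+CCl4 replicate 3, and without NC+CCl4 replicate 2 its change was 0.72 (limma adjusted p = 0.112). Without both NC+CCl4 replicate 1 and shLFAR1+CCl4 replicate 3 it was not called (limma adjusted p = 0.0861), and neither was Relb (limma adjusted p = 0.0612). Relb was also not called without NC+CCl4 replicate 1 or NC replicate 1 or 3 (limma adjusted p = 0.075 to 0.0909). Neither list had a call in any other comparison. Of 9 other genes that bind or clear LPS 2 rose, the scavenger receptors Cd36 by 2.56 ± 0.45 and Msr1 by 0.99 ± 0.30. Msr1 kept its call in 3 of the 12 fits without a single array, those without shLFAR1+CCl4 replicate 1 or 3 or NC+CCl4 replicate 3. Without NC+CCl4 replicate 2 its change was 0.66 (limma adjusted p = 0.137), and with replicate number as a block it was not called (limma adjusted p = 0.0563).

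Among 18 other inhibitors and feedback genes 3 rose and 1 fell in NC+CCl4 against NC. Nfkbiz, an inducible nuclear IκB protein, rose by 0.98 ± 0.17, and Tnfaip8l2, an inhibitor of immune signalling, rose by 0.72 ± 0.20, with Tnip1 (0.56) as the remaining rise. The call of Tnfaip8l2 was lost without NC+CCl4 replicate 2 or 3, shLFAR1 replicate 2, or NC replicate 1 or 3 (limma adjusted p = 0.0518 to 0.14). Nlrp12, a NOD-like receptor described as a brake on NF-kB in immune cells, was the gene that fell. Its values were 8.09, 8.03 and 6.88 in shLFAR1+CCl4, 5.63, 5.45 and 5.57 in NC+CCl4, 8.26, 8.17 and 8.30 in shLFAR1, and 8.79, 8.92 and 8.95 in NC. NC+CCl4 lay far below the other groups without overlap, and shLFAR1+CCl4 replicate 3 lay between it and the rest. Nlrp12 fell by 3.34 ± 0.24 log2 units in NC+CCl4 against NC (limma adjusted p = 6.05e-05), and it was 2.12 ± 0.24 higher in shLFAR1+CCl4 than in NC+CCl4 (limma adjusted p = 0.00537). With only the arrays of these groups and replicate number as a block this difference was not called (limma adjusted p = 0.198). In shLFAR1+CCl4 against shLFAR1 its change was -0.58 ± 0.24 (limma adjusted p = 0.413), which was not examined without single arrays.

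Nfkbiz was also called in shLFAR1+CCl4 against shLFAR1, where it rose by 1.17 ± 0.17 (limma adjusted p = 0.00903). Without shLFAR1 replicate 1 that change was 1.05 and was not called (limma adjusted p = 0.0596), and with only the arrays of these groups and replicate number as a block it was not called either (limma adjusted p = 0.15). Nfkbiz had values of 7.07, 6.55 and 6.89 in shLFAR1+CCl4, 6.38, 6.19 and 6.67 in NC+CCl4, 5.44, 5.80 and 5.78 in shLFAR1, and 5.30, 5.42 and 5.59 in NC, so that all CCl4 arrays were above all oil arrays.

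Of 19 NF-kB target genes 4 rose and 1 fell in NC+CCl4 against NC, with the chemokines Ccl5 (1.50 ± 0.41) and Cxcl10 (1.09 ± 0.30) and the adhesion molecule Icam1 (1.28 ± 0.16) as the largest. Ier3 (0.67) was the other gene that rose and the superoxide dismutase Sod2 (-0.28) the one that fell. Ccl5 was not called without NC+CCl4 replicate 1 or 3 or any NC array (limma adjusted p = 0.0553 to 0.103), and Cxcl10 was not without any NC array (limma adjusted p = 0.0575 to 0.111). Without NC+CCl4 replicate 2 the change of Cxcl10 was 0.60 and was called (limma adjusted p = 0.014). The neutrophil chemokine Cxcl1 was called in the comparisons with shLFAR1+CCl4. Its values were 11.98, 10.79 and 9.65 in shLFAR1+CCl4, 7.94, 7.94 and 8.05 in NC+CCl4, 8.02, 7.62 and 7.63 in shLFAR1, and 6.72, 7.30 and 8.29 in NC. Every shLFAR1+CCl4 array was above every array of the other groups. Cxcl1 rose by 2.83 ± 0.47 in shLFAR1+CCl4 against NC+CCl4 (limma adjusted p = 0.0317) and by 3.05 ± 0.47 in shLFAR1+CCl4 against shLFAR1 (limma adjusted p = 0.0133). The first call was lost without shLFAR1+CCl4 replicate 1 or 2, NC+CCl4 replicate 1 or 3, NC replicate 2 or any shLFAR1 array (limma adjusted p = 0.0564 to 0.113), and the second without any shLFAR1 array (limma adjusted p = 0.0538 to 0.0818), with changes of at least 2.24. With replicate number as a block the first was not called (limma adjusted p = 0.0532 over all arrays and 0.198 over the arrays of these groups), nor was the second over the arrays of its groups (limma adjusted p = 0.0798). The summed linear signal of 6 neutrophil markers was 295 to 502 in shLFAR1+CCl4, 335 to 556 in NC+CCl4, 137 to 174 in shLFAR1 and 127 to 162 in NC. In the CCl4 groups S100a8 and S100a9 were the highest of these markers, so the sum leans on them. The part of neutrophils in the Cxcl1 values was not tested.

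The genes whose pattern over the 12 arrays was most like each of the 10 were searched among 9096 genes with a mean above the median. The arrays share the 4 groups, so r also carries the differences between groups. Cd14 was closest to Lgals3 (Pearson's r = 0.98), Ltbp3 (0.98) and Lyz1 (0.98), and Tnfaip3 to Asph (0.97), Lnx1 (0.96) and Slpi (0.96). Lbp was closest to the acute-phase gene Serpina3n (0.95), to Tifa (0.93) and to Steap4 (0.92), and Tifa to Steap4 (0.94), Lrg1 (0.94) and Lbp (0.93). Lbp and Tifa were both chosen for the same response on some of these arrays. Their r with each other and with genes of that response therefore partly follows from the choice. Tlr2 was closest to the NADPH oxidase subunit Ncf1 (0.94), and Tlr4 to the complement gene C1qa (0.87). Ly96 was closest to Slc25a38 (0.97), Myd88 to Fnbp1 (0.91), Irak3 to Tmem150a (0.90) and Nfkbia to Tob2 (0.87).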

How the data were processed

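The authors summarized and normalized the deposited array values before deposition, by a method not given in the sources used here, and the values lay between 1.81 and 14.5, as log2 values do. The mean of an array was 5.10 to 5.11, so a shift in total RNA per cell is not visible in them. The table holds no detection calls, a low value may be background, and no filter on low values was applied. Exactly 1 gene symbol was annotated to 34945 of 45101 probe sets and several to 932, and the others were left out.

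A linear model of 4 group means was fitted to all 12 arrays with limma 3.58.1 in R 4.3.3 (lmFit and eBayes with an intensity trend, 8 residual degrees of freedom, two-sided), adjustment followed Benjamini and Hochberg over 18193 genes, and calls needed an adjusted p under 0.05. The same fit over 34945 probe sets compared the probe sets of a gene. Errors of changes are standard errors of this fit, SD is over the arrays of a group, and precision is limited by the number of arrays. The fit was tested on simulated data with the same spread in every group, a setting that differs from the data here. The median SD over genes was 0.143 in shLFAR1+CCl4, 0.172 in NC+CCl4, 0.106 in shLFAR1 and 0.131 in NC, and the pooled spread can be too small for the CCl4 groups. Where 1 array was left out, the arrays that remained were taken to vary like the other groups. Alternatives were a replicate block, fits on the compared groups alone, other variance moderation, array weights, quantile normalization, a filter on low values, other choices of probe set, and leaving out arrays. Another was the Student's test of the study's general methods, adjusted, and at the stated threshold with an unadjusted p. Leaving out NC+CCl4 replicate 1 together with shLFAR1+CCl4 replicate 3 was chosen after seeing the data.

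Named genes were the 10 genes, the 3 genes most correlated with each, up to 3 called genes per pathway list in NC+CCl4 against NC and up to 3 in each other comparison. These genes, the pathway and marker lists and the tests were chosen with earlier results of these data known. Same-numbered arrays of shLFAR1+CCl4 and NC+CCl4 deviated together from their group means (correlation 0.126 to 0.229, with -0.234 to 0.093 between different numbers), so for this comparison the values with replicate number as a block are given beside the calls they changed, while the main values come from the fit without it. The labels state no pairing, so it rests on the data, and no other comparison met the same criterion of every pair above 0.1. Promoter sequences were handled in Python 3.11.15. Tlr4, Ly96 and Lbp had no window in the reference used, whereas Cd14 was left out when the windows were selected.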

Additional observations from a re-analysis of the deposited data

Results flagged for a closer look

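Nlrp12, of the list of other NF-kB inhibitors, responded differently to CCl4 under the knockdown and the control virus by a test of the difference itself. Its log2 change was -0.58 in shLFAR1+CCl4 against shLFAR1 and -3.34 in NC+CCl4 against NC, which differ by 2.76 ± 0.34 (limma adjusted p = 0.0174). Part of this lies in the oil groups, with a mean of 8.25 in shLFAR1 and 8.89 in NC and no overlap, though limma called 0 of all genes between them. In shLFAR1+CCl4 replicate 3 (6.88) lay below replicates 1 and 2 (8.09 and 8.03). The difference was 2.55 to 3.16 without single arrays. It lost the call without shLFAR1+CCl4 replicate 1 or 2, NC+CCl4 replicate 1, any shLFAR1 array or any NC array, at a limma adjusted p of 0.052 to 0.0963. It was called without shLFAR1+CCl4 replicate 3 and without NC+CCl4 replicate 2 or 3. None of the 8 tested Toll receptor, LPS sensing and feedback genes met the same criterion.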

How the results depend on the processing

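The number of all 18193 genes called also moved between fits and is given in brackets. In NC+CCl4 against NC the number of the 10 genes called was 2 (2378). It was 1 with a filter on low values (1915 of the 9096 genes kept, Tnfaip3 not among them). The methods' t-test after adjustment gave 0 (280), array weights 3 (2817, Ly96 added) and the most variable probe set 3 (2578, Tlr4 added). The mean of probe sets gave 2 (2260, Tlr4 in place of Tnfaip3). Without both NC+CCl4 replicate 1 and shLFAR1+CCl4 replicate 3 it was 6 (3046). Without single arrays it was 1 to 5 (1263 to 2923), with 5 without NC+CCl4 replicate 1 (2208). In shLFAR1+CCl4 against NC+CCl4 it was 0 of 8 (53), against 1 without those 2 arrays (1541). Without single arrays it was 0 to 1, with 1 without shLFAR1+CCl4 replicate 3 (1327). In shLFAR1+CCl4 against shLFAR1 it was 0 (74). It was 1 with array weights (375), without those 2 arrays (135) and with the replicate block over all arrays (97). Without single arrays it was 0 to 1, with 1 without shLFAR1+CCl4 replicate 1 (84), and the gene was Cd14 each time. With the replicate block Cd14 had 1.76 there (limma adjusted p = 0.0417). The block changed no other call of the 10 genes. The counts in shLFAR1 against NC and in the interaction were 0 in every fit run, where 0 to 6 and 0 to 776 of all genes were called. Nlrp12 and Cxcl1 were not called in shLFAR1+CCl4 against NC+CCl4 when only the arrays of those groups were fitted (limma adjusted p = 0.255 and 0.332). Of the pathway genes named by the rule Nlrp12 alone was called in NC+CCl4 against NC with the methods' t-test after adjustment, and none was in the other comparisons. In NC+CCl4 against NC the block over the arrays of these groups also ended the call of Cxcl10 (limma adjusted p = 0.0737), and fitting these arrays alone those of Irf7, Relb, Tnfaip8l2, Msr1 and Cxcl10 (0.0515 to 0.117). Array weights ended those of Irf7 and Relb (limma adjusted p = 0.0555 and 0.0832), and quantile normalization that of Msr1 (limma adjusted p = 0.066).

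All changes of direction were in values that were not called. In shLFAR1 against NC Tlr2 was 0.036 and Cd14 0.079 with array weights, Tnfaip3 -0.073 with the mean of probe sets, and Tlr4 0.015 with the most variable probe set. In the interaction Irak3 was 0.042 with array weights and Tnfaip3 0.059 with the mean of probe sets, and in NC+CCl4 against NC Myd88 was 0.041 without the 2 arrays. Without single arrays Myd88 was -0.13 to 0.081 in NC+CCl4 against NC. In shLFAR1+CCl4 against NC+CCl4 Tlr2 was -0.31 to 0.21, Ly96 -0.021 to 0.30 and Tnfaip3 -0.37 to 0.084. In shLFAR1 against NC Tlr2 was -0.11 to 0.080, Ly96 -0.022 to 0.12, Cd14 -0.12 to 0.14, Nfkbia -0.27 to 0.029 and Tnfaip3 -0.020 to 0.31. In the interaction Tlr2 was -0.29 to 0.22, Tlr4 -0.23 to 0.11, Ly96 -0.089 to 0.23 and Irak3 -0.12 to 0.056. The causes were not tested.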
